A study of Rattus norvegicus with 12 samples.

Results

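Saa3, Lcn2, Serpina3n, Hp, Cp, A2m, Ptx3 and Orm1 are 8 genes of the acute-phase response, and they are described here in each of 12 rat arrays. A gene was measured where a probe set carried its symbol and no other. This gave 9 of 31042 probe sets and 7 of 14217 genes, with 3 probe sets for Cp, 1 for each of 6 genes and none for Ptx3. The genes were chosen on the values of the antibody arrays in these data, so every value under 7B12 and 11C7 is a description and carries no test. The members are tested only for control IgG against untreated cultures and for the replicate numbers, on which they were not chosen. Counts over all probe sets are also given for 7B12 and 11C7, with no test of a member read from them.

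The arrays came from organotypic hippocampal slice cultures, pieces of living hippocampus kept on a membrane. The slices, 350 µm thick, came from Wistar rats at postnatal day 7 and were cultured at 33 °C for 26 days, with 4 slices on each insert. One group received 7B12, a mouse monoclonal antibody to amino acids 763 to 820 of rat Nogo-A, and another received 11C7, which binds amino acids 623 to 640 of the same protein. The IgG group received a control antibody, and the NT group received none. Antibody was added to the medium at 3 µg/ml on day 21 and stayed for 5 days, during which the medium was renewed every 2 days. Each group had 3 replicates from different animals, and each replicate pooled 24 cultures before RNA was extracted. The slices had no blood supply and no liver, the organ that makes most acute-phase protein in the body. Nogo-A sits in the membranes of oligodendrocytes and some neurons, where it limits the growth of neurites.

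The acute-phase response is the change in secreted proteins that follows injury or infection, and it is driven by the cytokines interleukin-1, interleukin-6 and tumour necrosis factor through the transcription factors C/EBPβ, NF-κB and STAT3. Its proteins carry lipid, withhold iron, bind free haemoglobin or block proteases. In brain tissue, astrocytes and microglia also make several of them, and Lcn2 and Serpina3n are widely used as genes of reactive astrocytes.

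The DNA before the genes is shown so that the members can be set beside each other at the letters those factors are known to bind. Sequences are from RefSeq, build GRCr8, read 5′ to 3′ on the gene's strand. For Saa3 and Lcn2 the promoter stretch outside the annotated gene is given, at chr1:106358433-106358680 (minus strand) and chr3:36081852-36082030 (minus strand). For the others only the surroundings of a match are given, at chr5:81788375-81788404 for Orm1, chr2:104368587-104368616 for Cp, chr6:129088258-129088288 for Serpina3n and chr2:152797482-152797511 for Ptx3, all on the plus strand. The Cp stretch lies inside the annotated span of the gene, which has an earlier start. The promoter starts used for Lcn2 and Saa3 also lie inside their annotated spans. The last 71 promoter bases of Lcn2 and the last 2 of Saa3 are therefore not shown, and distances below are counted from the promoter start. Capitals mark letters that match 1 of 3 motifs, on either strand.
Saa3: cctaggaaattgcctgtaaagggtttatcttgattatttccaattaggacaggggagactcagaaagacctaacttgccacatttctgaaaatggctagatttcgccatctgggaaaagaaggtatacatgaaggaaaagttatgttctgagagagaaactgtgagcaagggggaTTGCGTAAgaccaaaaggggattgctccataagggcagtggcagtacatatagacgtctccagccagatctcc
Lcn2: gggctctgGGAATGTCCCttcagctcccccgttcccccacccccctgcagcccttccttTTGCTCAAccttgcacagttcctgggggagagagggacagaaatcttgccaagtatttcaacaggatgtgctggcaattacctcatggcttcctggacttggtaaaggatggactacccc
Orm1: gagggaacattTTGTGCAAgacatttccca
Cp: attatttactcTTGTGCAAcattaaattgt
Serpina3n: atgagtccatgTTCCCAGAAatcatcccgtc
Ptx3: gtggtttaacaTTGTGCAAcctcttcagct

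The 250 bases before the start were searched in 33469 promoters of the RefSeq table, 6 of them of members. The C/EBP core, spelled TTGCNNAA, was present in 5 of the 6 (Saa3, Lcn2, Orm1, Cp and Ptx3) and in 9.22% of all promoters. The same 8 letters, TTGTGCAA, which match on the reverse strand, stood before Orm1, Cp and Ptx3, with the first letter 123, 72 and 70 bases before the start. In Saa3 the match began 75 bases before the start and in Lcn2 191 bases before it. A STAT motif, TTCNNNGAA, was found before Serpina3n alone among the 6, and in 7.67% of all promoters. The NF-κB consensus was found before Lcn2, 242 bases from the start, and before Ptx3, where 2 overlapping matches lay 14 and 13 bases from it. That consensus was in 6.33% of all promoters, and no match of one motif overlapped a match of another in the members. The motifs were picked with these promoters in view, and a match describes letters only, not binding of a factor.

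As deposited, each probe set holds ratios, which show how a gene differed between arrays and not how much of it there was. No gene's level is therefore set against that of another. Values below are the log2 ratio less the median of its array, given for replicates 1, 2 and 3 in that order, and the controls are the IgG and NT arrays together. Replicate numbers 1, 2 and 3 differed from each other at an adjusted p under 0.05 for 5545 probe sets (17.9%; limma F test). That count fell to between 1747 and 3654 when any 1 array of 7B12, IgG or NT was left out. The 11C7 arrays were not alike. For all 7 measured genes 11C7 1 lay within or above the range of the 7B12 arrays, while for 5 of them, Saa3, Lcn2, Orm1, Cp and Serpina3n, both 11C7 2 and 11C7 3 lay below that range. Every 11C7 difference of a member is therefore given with and without 11C7 1. No probe set passed an adjusted p under 0.05 in limma for 7B12 or for 11C7 against the controls (0% of 31042), with 1615 and 999 at an unadjusted p under 0.05 (5.2% and 3.22%). Without 11C7 1 the limma count for 7B12 was 10, and the count for 11C7 was 1 without 11C7 3 and 1 without IgG 2. A limma fit of the 7B12, IgG and NT arrays alone, with the replicate number as a block and chosen after seeing the data, called 68 probe sets (0.219%), 61 of them higher in 7B12. Rtn4, which encodes the antigen, differed from the controls by -0.08 in 7B12 and 0.03 in 11C7, as the mean of 2 probe sets.

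Saa3 encodes a serum amyloid A, a small apolipoprotein that joins high-density lipoprotein during inflammation and that mouse macrophages also make. Its probe set stood at 6.52, 4.40 and 7.17 in 7B12 and at 6.62, 0.02 and 0.61 in 11C7. It stood at 0.06, -2.17 and -0.92 in IgG and at -0.15, -0.95 and -1.16 in NT. All 3 arrays of 7B12 and 11C7 1 were thus far above every control array, and the lowest 7B12 array exceeded the highest control by 4.35. As deposited, the ratios were 86.4, 19.3 and 137.2 in 7B12 and 96.7, 0.987 and 1.50 in 11C7, against 1.01, 0.21 and 0.523 in IgG and 0.858, 0.487 and 0.431 in NT. The mean was 6.03 ± 1.45 in 7B12, 2.42 ± 3.65 in 11C7, -1.01 ± 1.11 in IgG and -0.76 ± 0.53 in NT (SD, n = 3 each). The difference from the controls was 6.91 ± 1.33 (SE) in 7B12, or 120.4-fold, and was 4.56 when the arrays were quantile normalized, since that method limits how far a single extreme value can stand out. The difference in 11C7 was 3.30, and it was 1.20 without 11C7 1, 4.50 without 11C7 2 and 4.20 without 11C7 3. Saa3 had the highest difference of the 14217 genes in both antibody groups, which is among the values it was chosen for. In bulk RNA of this kind, more cells of a type and more RNA per cell cannot be told apart.

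Set against the mean of IgG and NT with the same replicate number, Saa3 was higher by 6.57, 5.96 and 8.21 in 7B12. In 11C7 the same differences were 6.67, 1.58 and 1.65, so 11C7 2 and 11C7 3 were also above their own controls. 7B12 and 11C7 differed by -0.10 in replicate 1, where they were alike, and by 4.38 and 6.55 in replicates 2 and 3. Its spread within groups was large, with an SD of 2.06 against a median of 0.49 over all probe sets, and most of it came from the 11C7 arrays.

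Lcn2 encodes lipocalin-2, a secreted protein that binds bacterial siderophores and so withholds iron. It stood at 1.78, 1.65 and 2.62 in 7B12 and at 1.87, -0.84 and 0.03 in 11C7. It stood at -2.29, -2.37 and 0.06 in IgG and at -2.02, -1.68 and 0.05 in NT. All 3 arrays of 7B12 lay above all 6 controls, but the controls were split: both replicate 3 arrays were near 0 and the other 4 were at -1.68 or lower. The means were 2.01 ± 0.53 in 7B12, 0.35 ± 1.38 in 11C7, -1.53 ± 1.38 in IgG and -1.22 ± 1.11 in NT (SD, n = 3 each). The difference from the controls was 3.39 ± 0.75 (SE) in 7B12, or 10.5-fold, and ranked 6 among all genes. In 11C7 it was 1.73, and 0.97 without 11C7 1 and 2.32 without 11C7 2. Against the controls of the same number, Lcn2 was higher by 3.93, 3.67 and 2.56 in 7B12, and the differences in 11C7 were 4.02, 1.18 and -0.03.

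**Figure D1:**
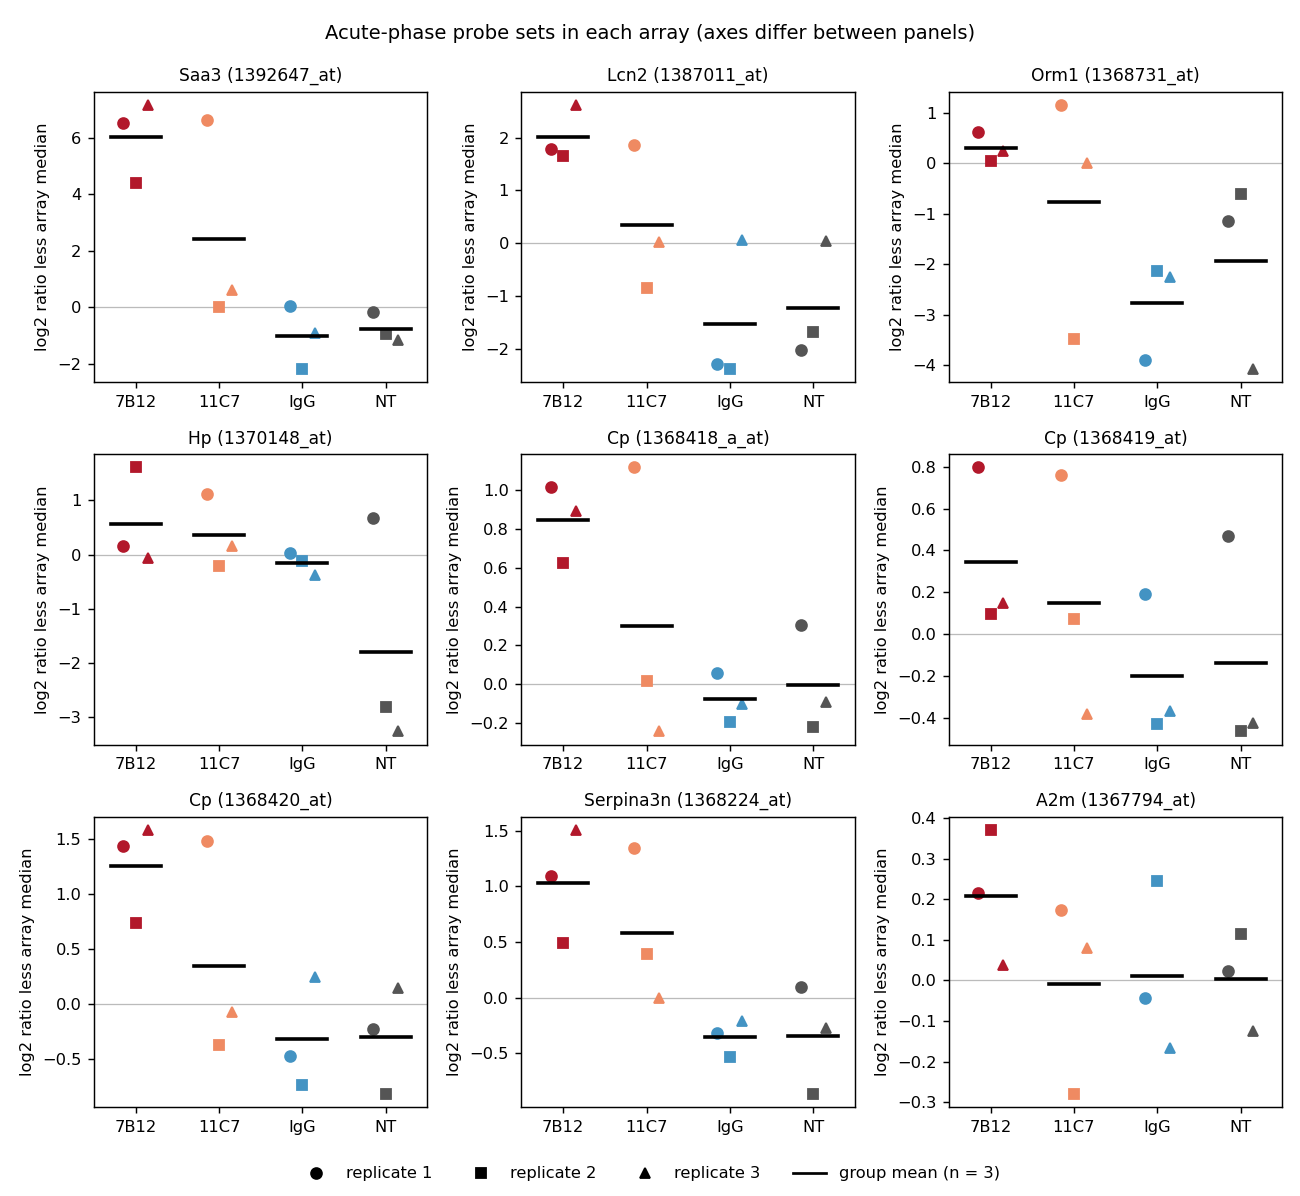
Each panel plots 1 probe set; the y axis is the log2 ratio less the array median and the x axis the group, with a marker shape for each replicate number and a line at the group mean (n = 3). Saa3, Lcn2 and Serpina3n in all 3 arrays of 7B12 lie above all controls, 11C7 1 lies with them, and the panels have different scales.

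Orm1 encodes alpha-1-acid glycoprotein, a plasma lipocalin that binds drugs and lipids. Its values were 0.62, 0.04 and 0.25 in 7B12 and 1.16, -3.48 and 0.01 in 11C7, against -3.90, -2.13 and -2.26 in IgG and -1.15, -0.61 and -4.07 in NT. The 7B12 arrays lay close together above all controls, while the controls and the 11C7 arrays spread widely, over 11.0-fold among the 6 controls. The difference was 2.66 ± 1.04 (SE) in 7B12, or 6.30-fold. In 11C7 it was 1.58, and it was 0.62 without 11C7 1, 2.94 without 11C7 2 and 1.19 without 11C7 3. The gap between the lowest 7B12 array and the highest control was 0.65, much less than for Saa3.

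Hp encodes haptoglobin, which binds free haemoglobin. Its values were 0.16, 1.61 and -0.06 in 7B12 and 1.12, -0.21 and 0.17 in 11C7, against 0.04, -0.12 and -0.37 in IgG and 0.67, -2.80 and -3.26 in NT. The 7B12 arrays overlapped with the controls, since NT 1 was above 2 of them. The difference from the controls was 1.54 ± 0.79 (SE) in 7B12, with 2.36 against NT alone and 0.72 against IgG alone, as NT 2 and NT 3 were the lowest of all arrays, and it ran from 1.02 to 2.16 with 1 array left out. In 11C7 it was 1.33, and it was 0.95, 1.62 and 1.43 without 11C7 1, 11C7 2 and 11C7 3. The probe sets of Orm1 and Hp were the 2 of the 9 whose deposited ratios had a median below 1 over the 12 arrays. Whether their signal was low, which would widen the spread of their ratios, could not be read from ratios and was not tested.

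Cp encodes ceruloplasmin, a copper protein that oxidises iron and lets it leave cells, and that astrocytes carry on their surface. The mean of its 3 probe sets was 1.08, 0.49 and 0.87 in 7B12 and 1.12, -0.09 and -0.23 in 11C7, against -0.08, -0.45 and -0.07 in IgG and 0.18, -0.50 and -0.12 in NT. The 7B12 arrays were above all controls, by 0.30 at the closest, and 11C7 1 was level with 7B12 1. The difference was 0.99 in 7B12, or 1.98-fold. In 11C7 it was 0.44, and it was 0.01 without 11C7 1, 0.62 without 11C7 2 and 0.69 without 11C7 3. The probe sets gave unequal sizes in 7B12, with 1.56 ± 0.43 (SE) for 1368420_at, 0.89 ± 0.28 for 1368418_a_at and 0.52 ± 0.32 for 1368419_at. The last of these overlapped with the controls, because NT 1 stood at 0.47 while 7B12 2 and 7B12 3 stood at 0.10 and 0.15.

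Serpina3n encodes a secreted serine protease inhibitor related to human alpha-1-antichymotrypsin. Its values were 1.10, 0.50 and 1.51 in 7B12 and 1.35, 0.39 and 0.00 in 11C7, against -0.31, -0.53 and -0.21 in IgG and 0.09, -0.86 and -0.27 in NT. All 3 arrays of 7B12 lay above the controls, and 11C7 1 and 11C7 2 did too, while 11C7 3 did not. The difference was 1.38 ± 0.34 (SE) in 7B12, or 2.61-fold. In 11C7 it was 0.93, and it was 0.54 without 11C7 1 and 1.02 and 1.22 without 11C7 2 and 11C7 3.

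A2m encodes alpha-2-macroglobulin, a broad protease trap and a major acute-phase protein of the rat. Its values were 0.22, 0.37 and 0.04 in 7B12 and 0.17, -0.28 and 0.08 in 11C7, against -0.04, 0.25 and -0.17 in IgG and 0.02, 0.11 and -0.12 in NT. The groups overlapped, and the whole of A2m's range over the 12 arrays was small beside that of the other members. The difference was 0.20 ± 0.17 (SE) in 7B12, or 1.15-fold, and -0.02 in 11C7, or -0.11, 0.12 and -0.06 without 11C7 1, 11C7 2 and 11C7 3. Against the controls of the same number, the 7B12 arrays were higher by 0.23, 0.19 and 0.18. Ptx3, a long pentraxin that marks microbes and dying cells for uptake, had no probe set of its own symbol and has no value here.

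Of the 7 measured genes, 5 had all 3 arrays of 7B12 above all 6 controls: Saa3, Lcn2, Orm1, Cp and Serpina3n. Over all genes this held for 2.52%, and the reverse, all 3 below, for 1.08% and for none of the members. As the genes were chosen on this contrast, nothing is read from that count. No member had all 3 arrays of 11C7 above or below all controls, against 0.935% and 0.788% of all genes. Saa3 and Orm1 would count as above without 11C7 2, and Serpina3n without 11C7 3, while leaving out IgG 1 gave 1 gene, Saa3, and leaving out NT 1 gave 1 gene, Serpina3n. By array, 6, 7 and 7 of the 7 genes were above the controls of their own number in 7B12 1, 2 and 3, the exception being Hp in 7B12 1. In 11C7 the counts were 7, 5 and 5, with Orm1 and A2m not above in 11C7 2 and Lcn2 and Cp not above in 11C7 3. Between 49.7% and 54.5% of all genes were above in these arrays. The median of the 7 differences was 1.21, 1.41 and 1.76 in 7B12 and 1.46, 1.09 and 0.24 in 11C7.

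**Figure D2:**
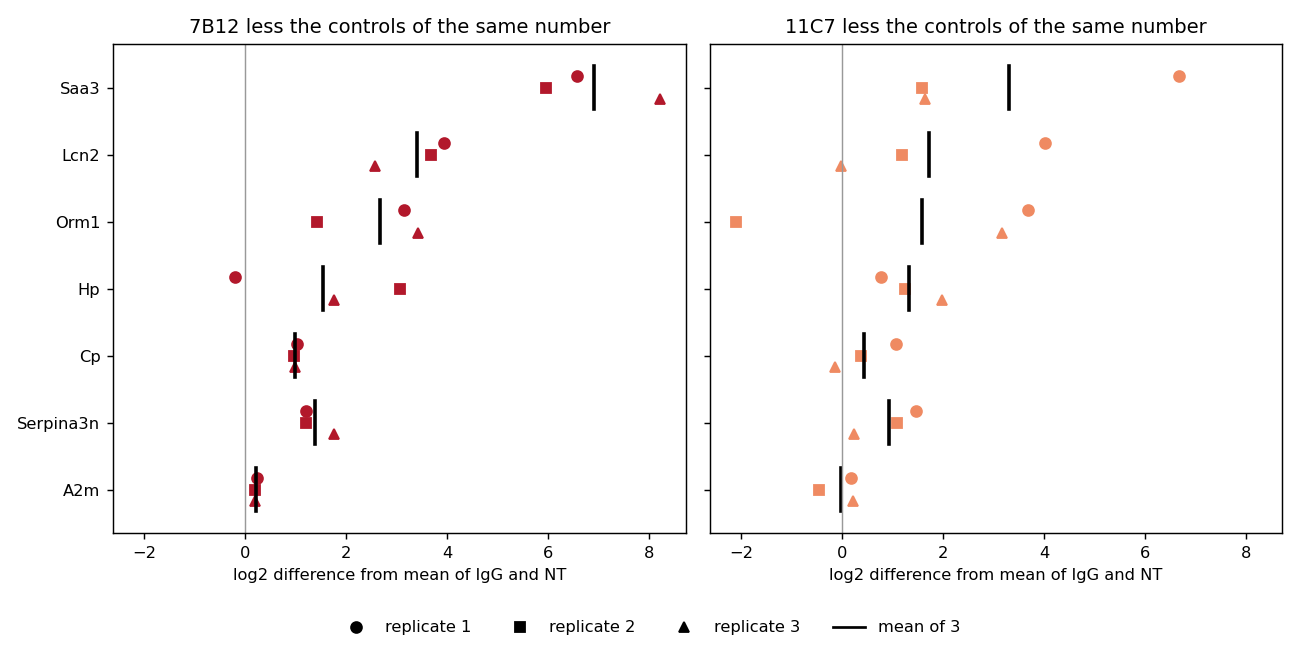
The x axis is the log2 difference of each array from the mean of IgG and NT with the same replicate number, with 7B12 on the left and 11C7 on the right, a marker for each replicate and a line at the mean of 3. Saa3 lies between 5.96 and 8.21 in 7B12, and in 11C7 only replicate 1 reaches that range.

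The comparison of IgG with NT asks whether a control antibody alone moved these genes. The 9 probe sets differed by -0.82 (Orm1) to 1.64 (Hp) between the groups, and none passed the test (limma, adjusted p = 1.00 for each). No probe set on the array passed (0%), and 719 had an unadjusted p under 0.05 (2.32%). Without IgG 1, or without NT 1, the limma count was 1. For Saa3 the difference was -0.25, with a 95% interval of -3.68 to 3.18, so changes of several-fold in either direction lay within the interval. For Lcn2 it was -0.32 (-2.26 to 1.62) and for Hp 1.64 (-0.40 to 3.69). The intervals were narrower for Serpina3n, at -0.00 (-0.89 to 0.88), and for A2m, at 0.01 (-0.42 to 0.44). No member had all 3 IgG arrays above, or all 3 below, the 3 NT arrays, against 2.24% and 1.94% of all genes, and without NT 1 there was 1 such gene, Hp, above. With 1 array left out, the difference of Orm1 ran from -1.88 (without NT 3) to -0.15 (without NT 2) and that of Hp from 0.91 (without NT 3) to 2.88 (without NT 1).

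**Figure D3:**
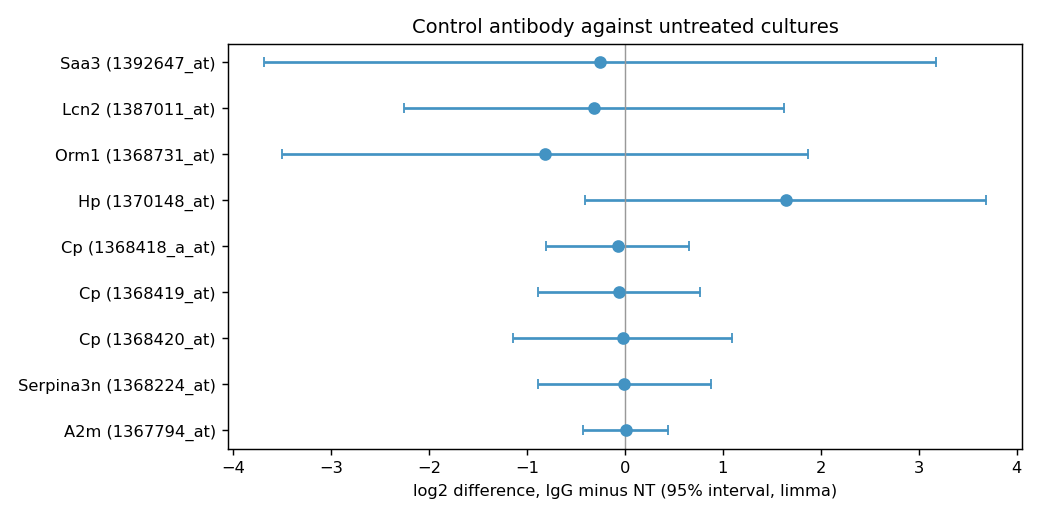
Points are log2 differences of IgG minus NT for each of the 9 probe sets and bars their 95% intervals from limma. Every bar crosses 0, and the bars of Saa3, Orm1, Hp and Lcn2 are the widest.

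Among replicate numbers, 1 of the 9 probe sets passed, 1368419_at of Cp (limma F test, adjusted p = 0.0124). Its means over the 4 groups were 0.55, -0.18 and -0.26 for numbers 1, 2 and 3, so number 1 was the high one in every group. The share over all probe sets was 17.9%, and the shares in the marker lists of microglia, neurons and oligodendrocytes, given with those lists, were higher. They were not the only ones: 4 of 10 endothelial, 8 of 32 inducing cytokine and receptor, and 7 of 28 partner and receptor probe sets also passed. Signalling and transcription (7 of 35), iron handling (5 of 26) and hepatocyte (2 of 11) probe sets were near the share over all probe sets. Some lists were lower, among them fibroblast and meningeal markers (1 of 9) and choroid plexus and ependymal markers (0 of 11). For Saa3 the means were 3.26, 0.33 and 1.42 (adjusted p = 0.173) and for Lcn2 -0.17, -0.81 and 0.69 (adjusted p = 0.266), from the same limma test, in which neither passed.

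The genes whose profile lay nearest to that of Saa3 were found by the root mean square difference over the 12 arrays, after each profile was centred. Pilra was nearest at 1.30, followed by Slpi at 1.56, Cxcl13 at 1.75, Itgal at 1.84, Il1b at 1.89, Slamf9 at 1.97, and Ms4a7 and Cxcl11 at 2.00. A profile with no variation would lie at 3.31 from Saa3, so even the nearest genes followed it only in part. Lcn2 was at rank 10 of 14216 (2.02) and Orm1 at rank 31, while Serpina3n was at 115, Cp at 205, Hp at 299 and A2m at 3295. Nearest to Lcn2 were Itgal at 0.39 and Hpgds at 0.40, then Ncf1 at 0.66, Adgre1 and Il1b at 0.69, Ms4a7 at 0.70, Clec4a1 at 0.71 and Pilrb2l4 at 0.73, where a flat profile lay at 1.70. The rank is not the same from both sides, and Saa3 was at rank 12203 from Lcn2, at 2.02 and so farther than the flat profile. From Lcn2, Serpina3n was at rank 109, Cp at 212, Orm1 at 696, A2m at 3385 and Hp at 10008. Itgal, Il1b and Ms4a7 stood in both sets of 8. Itgal, an integrin subunit gene of leukocytes, was at 2.49, 2.29 and 3.86 in 7B12 and 2.09, -0.54 and 0.01 in 11C7, against -1.45, -1.51 and 0.29 in IgG and -1.60, -1.68 and 0.07 in NT. It thus shared with Lcn2 the high 11C7 1 array and the split of the controls by number. All these points share 12 arrays and their replicate numbers.

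**Figure D4:**
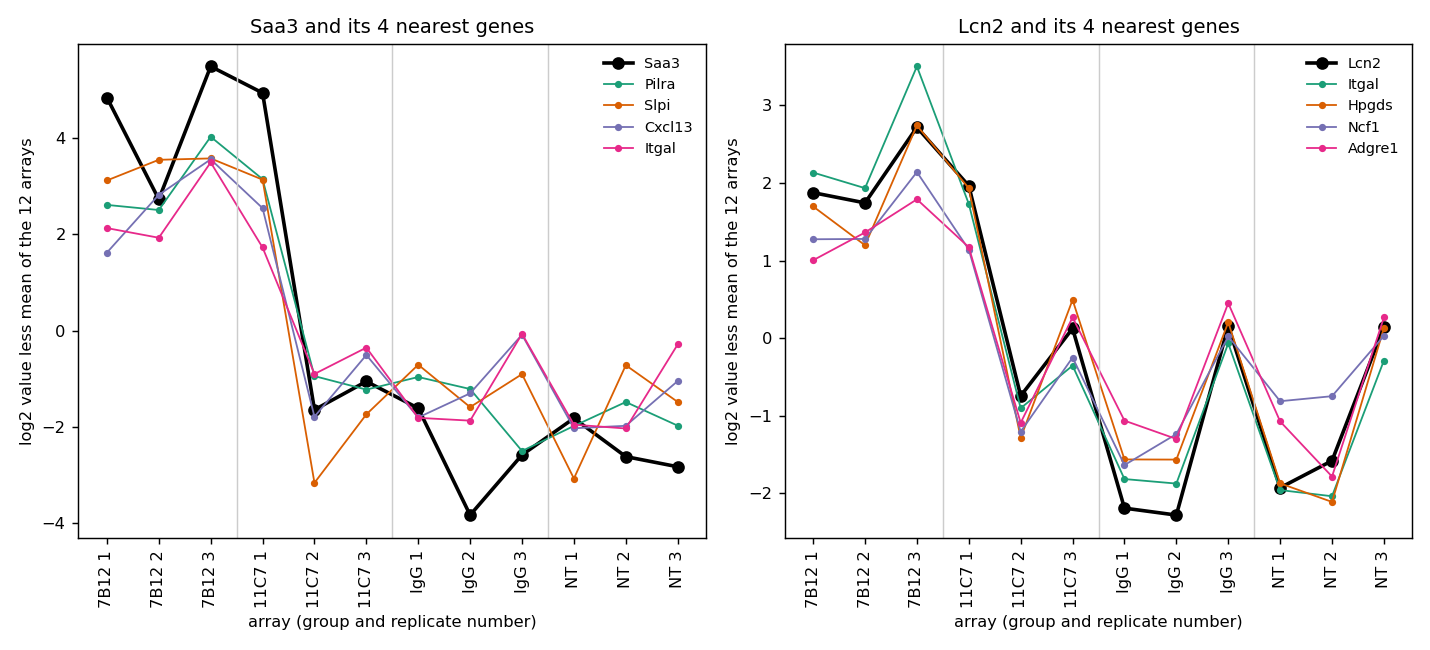
Centred log2 profiles (y axis) over the 12 arrays (x axis) of Saa3 with its 4 nearest genes and of Lcn2 with its 4 nearest. In both panels the 3 arrays of 7B12 and 11C7 1 are high, and near Lcn2 the replicate 3 controls lie above the other 4 controls.

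Other genes of the response are given from lists. For each list, the count of genes with all 3 arrays of an antibody group above or below all 6 controls stands beside its median difference, and these read against 2.52% higher and 1.08% lower over all genes in 7B12, whose median difference was 0.01, and against 0.935% higher and 0.788% lower in 11C7, whose median was 0.03. No probe set of any list passed the limma test for 7B12 or 11C7 against the controls in the fit over all 12 arrays. The 68 probe sets called in the paired fit of 7B12, IgG and NT included 1 probe set each of Steap4, Il1b, Nfkbiz and Tlr2 from the pathway lists below, all higher in 7B12, and none from the marker lists. They also included 3 of the members' 9, those of Saa3, Lcn2 and 1368420_at of Cp, from which nothing is read because the genes were chosen on this contrast. Other positive acute-phase genes, 29 of 36 measured, had a median of 0.38 in 7B12 and 0.08 in 11C7, with 5 higher and 1 lower without overlap in 7B12. Cd14, the co-receptor for endotoxin, stood at 1.56, 1.26 and 3.42 in 7B12 and 2.31, -0.14 and 0.19 in 11C7, against -0.11, -0.80 and 0.15 in IgG and -0.12, -0.77 and -0.14 in NT. Like Lcn2 and Saa3 it was high in 7B12 and in 11C7 1, but its replicate 3 controls did not stand apart as those of Lcn2 did. Cd14 was named for its difference in 7B12, so its height there was part of the choice. The metalloreductase gene Steap4 was also above all controls in 7B12, by 1.69, while Il1rn, an interleukin-1 antagonist, at 2.08, and the short pentraxin Apcs, at -1.87, overlapped with them. Named after their values were seen, the others without overlap were the protease inhibitor gene Timp1 (1.60), the complement gene C3 (1.53), the C1 inhibitor gene Serping1 (1.19) and, below the controls, C4bpa (-1.32). In 11C7 Serping1 (0.80) was the 1 gene of the list above all controls, with 0 below. Negative acute-phase genes, whose products fall in plasma during the response, were measured for 12 of 13. Their median was 0.16 in 7B12 and -0.0004 in 11C7, with 0 higher and 1 lower without overlap in 7B12 (Itih2, -1.76) and none in 11C7. Ttr, transthyretin, differed by 0.83, Ahsg by 0.80 and Serpina6 by -1.76, all overlapping with the controls.

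Cytokines that induce the response and their receptors, 21 of 24 measured, had a median of 0.23 in 7B12 and 0.03 in 11C7, with 4 higher and 1 lower without overlap in 7B12. Those 4 were Il1b (3.18), Il6 (1.94), Tnfrsf1b (1.84) and Tnf (1.71), and the lower one, named after its value was seen, was the receptor subunit gene Il6st (-0.38). Il1b stood at 2.58, 2.49 and 3.94 in 7B12 and 2.82, -0.51 and 0.50 in 11C7, against -0.16, -0.59 and -0.02 in IgG and -0.31, -0.04 and 0.09 in NT. Il6 stood at 0.84, 0.82 and 1.15 in 7B12 and at 0.20, 0.06 and -0.08 in 11C7, against -0.11, 0.43 and -2.87 in IgG and 0.04, -0.38 and -3.11 in NT. Il1b was thus high in 11C7 1, whereas the Il6 value of that array lay below the value in IgG 2. Signalling and transcription genes of the response, 22 of 25 measured, had a median of 0.49 in 7B12 and 0.20 in 11C7, with 6 higher and 0 lower without overlap in 7B12. They included the kinase-like Irak3 (1.40), Nfkb2 (0.96), an NF-κB subunit gene, and Tnfaip3 (0.95), an inhibitor of that pathway, while Bcl3 (0.91) overlapped with the controls. In 11C7 no gene of either list was above or below all controls.

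Partners and receptors of the members, 20 of 26 measured, had a median of 0.02 in 7B12 and 0.01 in 11C7, with 1 gene higher without overlap in 7B12. That was Tlr2 (1.75), a receptor at which serum amyloid A acts. Mmp9, whose product binds lipocalin-2, differed by 1.01, Ager by -1.53 and Heph, the membrane relative of ceruloplasmin, by -0.75, each overlapping with the controls. In 11C7 Heph alone of the list was below all controls, against 0.788% of all genes, at -0.26, -0.10 and 0.00 against 0.22, 0.09 and 0.30 in IgG and 0.37, 0.08 and 0.28 in NT. Iron handling genes, 18 of 23 measured, had a median of 0.12 in 7B12 and -0.06 in 11C7. In 7B12 1 gene was higher without overlap, the iron importer Slc11a2 (0.58). Hfe differed by 0.72 and Hjv by -0.80, with overlap. All 18 lay between -0.80 and 0.72 in 7B12, and Heph stands in both lists. In 11C7 no other gene of the 2 lists was above or below all controls.

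**Figure D5:**
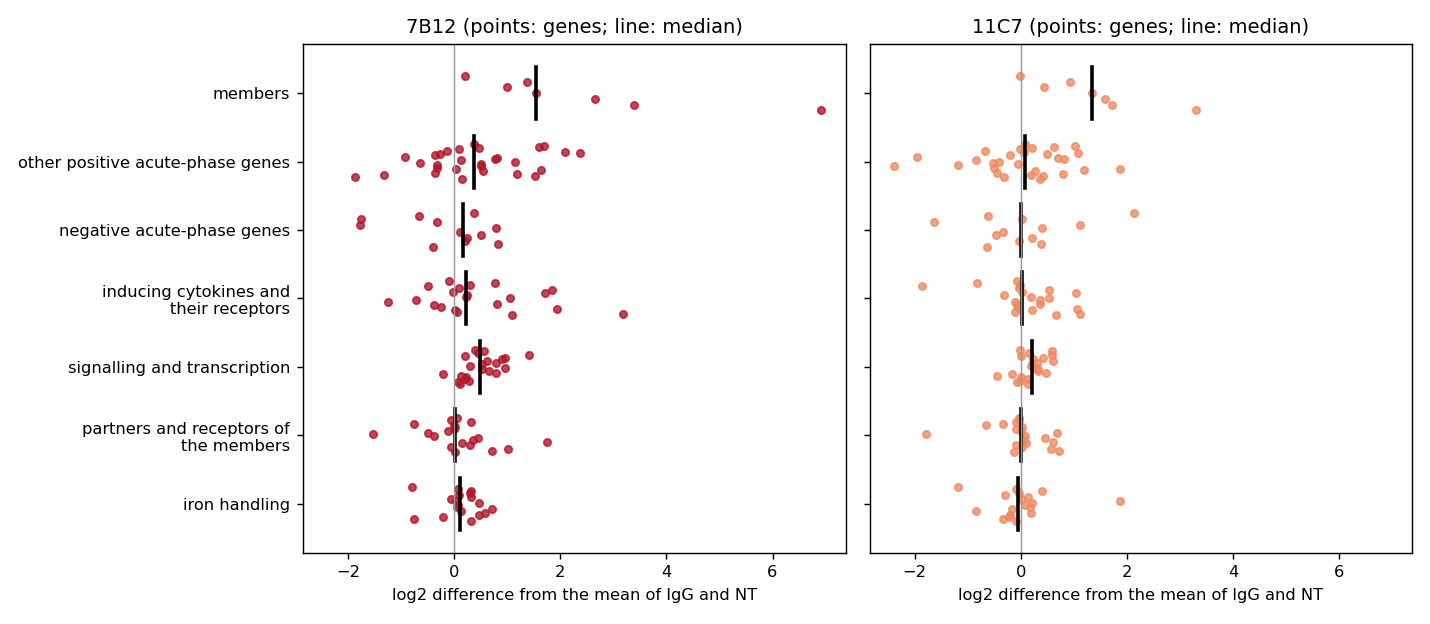
Each point is 1 gene of a list, placed on the x axis by its log2 difference from the mean of IgG and NT in 7B12 (left) and 11C7 (right), with a line at the list's median. Saa3, at 6.91 in 7B12 and 3.30 in 11C7, is the point farthest right in both panels.

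Markers of cell types that make acute-phase proteins, or could enter a slice, are given because they may move with the members. Since ratios carry no level, it could not be read whether a marker was present or at 0 in the cultures, nor could the tissue be checked in that way. Neutrophil markers, 7 of 12 measured, had array means of -1.05 to -0.13 in 7B12 and -1.40 to -0.88 in 11C7, against -1.58 to 0.17 in IgG and -1.63 to -1.0 in NT. They overlapped as a list, and none of the 7 was above all controls in 7B12. Among them, S100a8 differed by 1.23, Camp by 1.97 and Mmp8 by -1.06 in 7B12, all with overlap, and Mmp8 in 11C7 was below all controls (0.788% of all genes were), the 1 marker gene of any list apart from them in 11C7. Microglial and macrophage markers, 12 of 12 measured, ran from -0.13 to 0.60 in 7B12 and from -0.35 to 0.49 in 11C7, against -0.35 to 0.75 in IgG and -0.52 to 0.60 in NT. Trem2, a phagocytic receptor gene, was below all controls in 7B12 (-0.64), while Tmem119 (1.07) and Ptprc (0.56) overlapped with them. Of their 16 probe sets, 13 passed the limma test of replicate number at an adjusted p under 0.05. Their part in the members' values was not tested.

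Astrocyte markers, 10 of 10 measured, ran from -0.32 to 0.11 in 7B12, against 0.01 to 0.18 in IgG and 0.10 to 0.26 in NT, with no gene apart from the controls. Gjb6 differed by -1.18, Slc1a2 by -0.33 and Gja1 by -0.33. Neuronal markers, 10 of 10 measured, ran from -1.16 to 1.21 in 7B12 and from -1.84 to 1.36 in the controls, and 14 of their 17 probe sets passed the limma test of replicate number at an adjusted p under 0.05. Gad1 differed by 0.45, Slc17a7 by 0.42 and Map2 by -0.27. Oligodendrocyte markers, 6 of 7 measured, ran from -0.70 to 0.31 in 7B12 and from -0.86 to 0.61 in the controls, and 10 of their 12 probe sets passed the same test. Mobp differed by -0.42, Mog by -0.20 and Cnp by -0.11. Endothelial markers, 7 of 8 measured, ran from -1.29 to 0.05 in 7B12 and from -0.83 to 0.72 in the controls. Kdr differed by -1.61, Emcn by -1.03 and Cldn5 by -0.60. None of the genes in these 4 lists was above or below all controls in 7B12.

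Fibroblast and meningeal markers, 7 of 7 measured, ran from 0.01 to 1.36 in 7B12 and from -0.65 to 0.63 in the controls. Col3a1 differed by 1.32, Col1a2 by 1.06 and Col1a1 by 0.85, while Pdgfra differed by -0.44 and Igfbp2 by -0.12. The median difference was 0.77 in 7B12, with 5 of the 7 genes above 0, and -0.21 in 11C7, with 2 above 0. No gene of the list was above or below all controls in either group. The highest array mean of the fibroblast and meningeal list was that of 7B12 2, at 1.36. Choroid plexus and ependymal markers, 7 of 7 measured, had means of -0.26 to 0.35 in 7B12 and -1.08 to -0.16 in 11C7, against -0.60 to -0.35 in IgG and -1.07 to -0.61 in NT. The 7B12 means were thus above every control mean, with Otx2 above all controls (1.87) and Kl (1.55) and Ttr (0.83) overlapping. Those genes carried the means: Folr1 differed by -0.26, Foxj1 by 0.08, Prlr by 0.09 and Aqp1 by 0.12, and the median of the 7 was 0.12. Kl also differed by 1.52 between IgG and NT. Hepatocyte markers, 8 of 8 measured, ran from -1.54 to -0.73 in 7B12 and from -1.91 to -0.75 in the controls. Apob (1.23), Cyp2e1 (0.82) and Ahsg (0.80) had the largest differences in 7B12 and overlapped with the controls. As a list these markers did not rise in 7B12, with a median difference of -0.04 and 4 of the 8 genes above 0. The part of these cell types in the members' values was not tested.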

How the data were processed

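Biotin-labelled RNA was hybridised to Affymetrix rat arrays, and per the submitters' processing notes scans went through GCOS 1.4 and MAS5. Per the design text, values were normalized in GeneSpring per array and per gene to the median of the controls. The values the authors deposited are ratios. Their median over all 12 arrays was 1, within 0.0015, for 76.4% of probe sets, and that over the 6 controls for 11.2%, so the divisor differs from that text. A constant divisor leaves log2 differences between groups as they are. Of 31099 probe sets 57 spike-ins were left out. The platform annotation gave 20826 of the others (67.1%) 1 symbol, and probe sets of a gene were averaged. With 3 arrays a group, precision is limited by their number.

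Each value was log2 of the deposited ratio less the array's median. limma 3.58.1 (R 4.3.3) fitted 1 mean per group over 12 arrays without a trend, with two-sided tests and Benjamini-Hochberg adjustment over 31042 probe sets, and was tested on simulated data. Replicate numbers were tested by F over group and number. Numbers were checked by the correlation of deviations from the group means: 17 of 18 pairs with the same number were over 0.1 (0.0861 to 0.423). Correlations of each array with those of the other groups were also averaged by number, and for 12 of 12 arrays their own number had the highest mean. For number 1, pairs with an 11C7 array were at 0.215 to 0.278 and the other pairs at 0.299 to 0.423. For number 2 they were at 0.120 to 0.124 and 0.195 to 0.267. For number 3 the ranges overlapped, at 0.0861 to 0.141 and 0.120 to 0.138. Deviations from group means hold no difference between groups, so the check cannot show whether a whole group was shifted. The 1 pair not over 0.1 was 11C7 3 with IgG 3 (0.0861), and 7B12 3 with IgG 3 was at 0.120. The members and lists were chosen with earlier results of these data known. By the rule for names, each list of pathway genes gives up to 4 and each marker list up to 3 genes with the largest absolute difference of 7B12 from the controls, and Saa3 and Lcn2 their 8 nearest genes. Alternatives are in the closing section.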

Additional observations from a re-analysis of the deposited data

How the results depend on the processing

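The 5 genes with all 3 arrays of 7B12 above all controls stayed 5 in number with the values as deposited, with quantile normalization, with 1 probe set for Cp and with any 1 array left out, and were 6 with the replicate block, where each array had to lie above both controls, IgG and NT, of its number and not above their mean. For 11C7 the count of such genes was 2 with that block and 0 to 2 with 1 array left out, and for IgG above NT 0 to 1. Fitting the replicate block over all 12 arrays changed no call (0 for 7B12, 11C7 and IgG minus NT). Fitting only 7B12 and the controls gave 1 call, and the same fit with the replicate block, chosen after seeing the data, gave 68. Among the 68 were probe sets of Saa3, Lcn2 and Cp, from which nothing is read because the members were chosen on this contrast. With 1 array left out, calls were 0 to 10 for 7B12 (10 without 11C7 1), 0 to 1 for 11C7, 0 to 1 for IgG minus NT and 1747 to 6116 for the replicate number. For IgG minus NT there was 1 call when only probe sets with 1 symbol were tested and 1 when only those with a 12-array median of 1 were. The cause of these moves was not tested.

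Differences of IgG minus NT changed sign where they were small. Serpina3n was at 0.017 with the values as deposited, 0.0077 with quantile normalization and 0.040 with array weights. With 1 array left out the ranges were -0.26 to 0.22 for Serpina3n, -0.11 to 0.10 for A2m, -1.11 to 0.32 for Lcn2 and -0.79 to 0.33 for Saa3. For Cp they were -0.18 to 0.077 (1368418_a_at), -0.26 to 0.24 (1368419_at) and -0.31 to 0.20 (1368420_at). In 11C7, leaving out 11C7 1 moved 1368418_a_at of Cp to -0.07 and Saa3 to 1.20. In 7B12, Saa3 was 6.34 to 7.73 and Lcn2 3.09 to 3.79 with 1 array left out. With 3 arrays a group and ratios in place of signals, neither the level of a gene nor small differences could be read.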

Other observations

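Relatives of the members by family were read after the values were seen and stand outside the rule for names. Of 19 such genes with a probe set of their own symbol, 1 was above all controls in 7B12 and 0 were below, with a median difference of 0.16. Over all genes the shares were 2.52% above and 1.08% below. The 1 was C3, of the A2m family, at 0.73, 0.92 and 1.37 in 7B12 and 0.81, -1.14 and 0.04 in 11C7, against -0.61, -0.89 and 0.24 in IgG and -0.65, -1.26 and 0.04 in NT. The 7 other lipocalin genes differed by -1.31 to 0.31 in 7B12 and 3 other clade A3 serpin genes by -0.32 to 0.50, while Lcn2 and Serpina3n differed by 3.39 and 1.38. As Lcn2 and Serpina3n were chosen on this contrast and the relatives were not, nothing is read from that gap. Among 4 other pentraxin genes, Crp differed by 0.15. The probe set shared by Saa4 and Hps5, which cannot be given to either gene, stood at -0.61, -0.31 and -0.07 in 7B12 and -2.23, -0.51 and -0.01 in 11C7, against -0.59, -0.24 and -2.83 in IgG and 0.47, 0.35 and -1.90 in NT.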
